A study of Mus musculus with 14 samples.

Results

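RNA that came down with a nonspecific antibody (IgG) was compared with input RNA in mouse neurospheres, to see which RNA classes and genes such a precipitate gathers or loses. The 4 libraries, IgG replicates 1 and 2 and input replicates 1 and 2, were chosen by their labels from the 8 RNA immunoprecipitation (RIP) libraries of a series of 14 samples. Both groups are labelled wildtype, cultured and untreated, and the cells are neural stem cells from the subventricular zone of adult mice, grown as neurospheres, which are floating clusters of stem and progenitor cells. The other 4 RIP libraries are precipitates with an antibody to CPEB4, a protein that binds mRNA 3′ ends and controls poly(A) tail length, 2 from wildtype cells and 2 from cells labelled CPEB4-/-. The sequenced molecule is labelled polyA RNA for precipitates and inputs alike. The labels' account of library making covers the single-cell assay, so how the RIP libraries were made was not given in the sources used here, nor were the age of the mice, the number of animals pooled or whether replicates were separate cultures. The p-values below come from a fit of all 8 RIP libraries. They therefore measure the spread between replicates of all these libraries, CPEB4 precipitates included, which may be technical.

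In a RIP experiment, an antibody on beads pulls down a protein with the RNA bound to it. An IgG with no target in the cell is carried through the same steps, and what it brings down is RNA held by beads, tube walls, the antibody itself or large complexes. The classes described below differ widely in how they are made: messenger RNAs carry a poly(A) tail, while most small nuclear RNAs, the signal recognition particle RNA 7SL, the RNase P RNA, the Y RNAs and 5S rRNA have none, and replication-dependent histone mRNAs end in a stem-loop instead of a tail.

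The IgG libraries held 10054346 and 11268997 counts over 18812 and 19951 detected genes, and the inputs 17466296 and 15918316 counts over 22317 and 21148 genes. On log2 levels, Pearson's r was 0.96 within the IgG pair, 0.973 within the input pair and 0.699 to 0.733 between an IgG library and an input, a description across genes. Levels are given as scaled CPM, counts per 1e6 of the library total multiplied by a factor (TMM) that sets the bulk of genes equal between libraries. The factors were 0.43 and 0.55 for IgG and 2.86 and 2.71 for input, so a log2 fold change (IgG over input) is relative to the bulk of genes. Of 27144 genes, 17062 passed the filter on low counts, and edgeR's quasi-likelihood test over all of them called 3099 higher (18.2%) and 2661 lower (15.6%) in IgG, together 33.8%, at a Benjamini-Hochberg adjusted p under 0.05. These percentages are the background for every gene group below, as is the median log2 fold change of all tested genes, -0.13. With library totals alone as the scale, that median moved by -2.49, and the same test called 426 genes higher and 11176 lower, so that 3.7% of the calls were higher, against 53.8% with TMM.

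The inputs stood apart from the precipitates in ways that reach beyond abundance. All 37 mitochondrially encoded genes were at 0 in both inputs, while they had 29672 and 9841 counts in IgG. In the CPEB4 precipitates they had 11627 and 166877 counts with wildtype cells and 18314 and 10566 with cells labelled knockout. Another 84 genes had 50 or more counts in each input and 0 in both IgG libraries, and 66 of these are pseudogenes, which are copies of other genes. In the opposite direction 42 genes had 50 or more counts in each IgG library and 0 in both inputs, 15 of them snRNA loci and 13 mitochondrial mRNAs. Any difference in how inputs and precipitates were prepared, aligned or counted cannot be told apart from precipitation with IgG.

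The cell type on the labels was checked against 18 neural stem cell markers found in the table. Their summed level was 3692 and 4034 scaled CPM in IgG and 4040 and 4351 in input, with none of the 18 at 0 in either group. As shares of all counts they took 0.158% and 0.224% in IgG and 1.15% and 1.18% in input. TMM sets the bulk of genes equal, so the closeness of the summed levels does not bear on the cell type. Nestin (Nes), the intermediate filament of neural stem cells, had 402 and 497 scaled CPM in IgG and 304 and 357 in input (log2 fold change 0.44, SE 0.75, edgeR adjusted p = 0.66). These are bulk libraries, in which a lower share of cells of a type and less RNA per cell cannot be told apart.

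A few genes filled the IgG libraries. The most abundant gene of each IgG library took 11.5% and 11.0% of its counts, against 0.729% and 1.29% in the inputs. The 10 most abundant took 63.9% and 59.8% in IgG, against 3.92% and 4.50% in input. The 1000 most abundant took 91.6% and 88.7% in IgG, against 42.6% and 45.1% in input, so the IgG libraries had little depth left for the other genes.

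**Figure D1:**
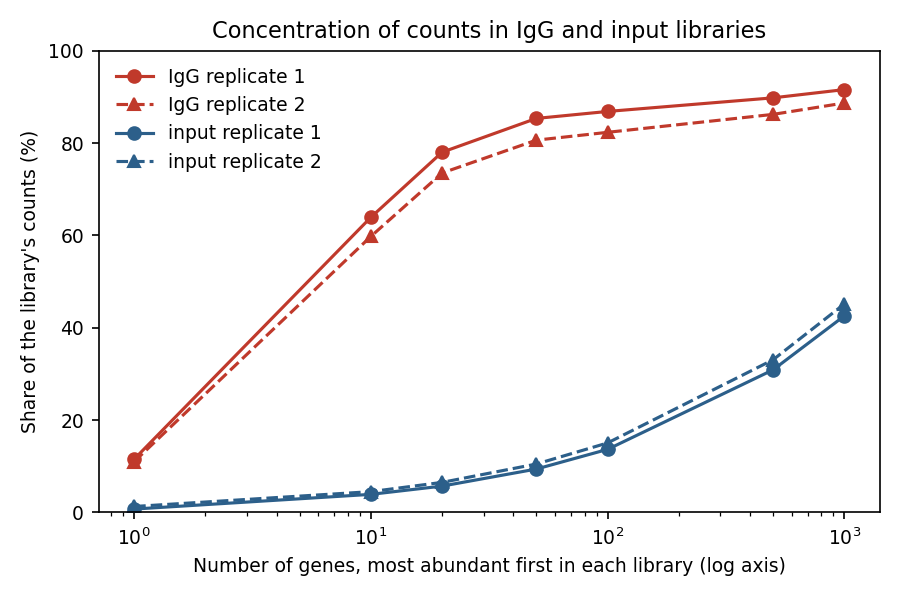
Cumulative share of each library's counts (y axis, percent) held by its most abundant genes (x axis, number of genes on a log scale), with a line for each IgG and input library. At 10 genes the IgG lines stand at 63.9% and 59.8% and the input lines at 3.92% and 4.50%.

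The 20 genes with the highest mean share in IgG held 78.0% and 73.5% of the IgG counts and 0.244% and 0.349% of the input counts. They were chosen for their IgG level, so their fold changes, which run from 8.04 to 17.31 on the log2 scale, are a description. Of the 20, 16 are protein-coding genes. Cmss1, a ribosome biogenesis gene, was the highest, with 1160392 and 1240869 counts in IgG and 1844 and 1821 in input (log2 fold change 12.53, SE 2.65, edgeR adjusted p = 0.00847). It lies at chr16:57301999-57606867 (GRCm38.p6) and contains Filip1l (chr16:57353277-57572804), which had 856641 and 923736 counts in IgG and 1931 and 1970 in input. The strand setting of the counting was not given in the sources used here, so reads of this overlapping pair cannot be assigned to either gene with certainty.

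Gm42418 ranked second by mean share, with 934071 and 875675 counts in IgG and 23832 and 37923 in input (log2 fold change 8.04, SE 2.09, edgeR adjusted p = 0.018). The RefSeq table names this locus, chr17:39846354-39848202, Rn18s-rs5, a sequence related to 18S ribosomal RNA, and places AY036118 over it. Among the 20 genes it was the one with the most input counts.

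The other 7 of the 10 most abundant genes encode proteins of varied function. Zc3h7a, which codes for a zinc finger protein, had 876909 and 875104 counts in IgG and 1950 and 1092 in input. Arhgap21, a GTPase-activating protein, had 753639 and 827211 counts in IgG and 3588 and 2467 in input, and Sspn, coding for sarcospan of the dystrophin complex, had 459256 and 514372 in IgG and 506 and 692 in input. Peak1 (a pseudokinase), Jarid2 (a subunit of the Polycomb repressive complex), Lars2 (the mitochondrial leucyl-tRNA synthetase) and Kpna1 (an importin) had 246365 to 475848 counts in IgG and 674 to 1631 in input. In each of these genes both IgG libraries lay far above both inputs, and the IgG replicates differed less from each other than from any input. Kpna1 overlaps the noncoding gene Gm15564, itself among the 20 with 81750 and 93870 counts in IgG and 665 and 716 in input, so this pair also shares its reads in an unknown way. Zc3h7a overlaps the snRNA gene Gm24145, and Peak1 and Lars2 overlap the long noncoding genes Peak1os and Gm46137. The reads at these genes cannot be assigned with certainty either. Arhgap21, Sspn and Jarid2 overlap no other gene of the RefSeq table.

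Calls for these very abundant genes had wide errors. The estimate of spread also drew on the CPEB4 precipitates, whose replicates were less alike for some of these genes. Cmss1 had 64325 and 283070 scaled CPM in the knockout-labelled pair and 94799 and 130370 in the wildtype pair, against 269890 and 198680 in IgG. Without input replicate 1 or without input replicate 2, none of the 10 had an edgeR adjusted p under 0.05, with values up to 0.131 for Gm42418 and 0.0927 for Cmss1. Gm42418 also lost the call without either IgG library (up to 0.0895), and Cmss1 without IgG replicate 2 (0.0502). The log2 fold changes themselves moved little, for Cmss1 between 12.26 and 12.69 with 1 library left out. Outside the 10, Col6a6, a collagen VI chain, had the largest fold change among the named nuclear-encoded mRNAs, with 69529 and 80363 counts in IgG and 10 and 10 in input (log2 fold change 16.00, SE 1.76, edgeR adjusted p = 0.000427), and it was called whichever library was left out.

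**Figure D2:**
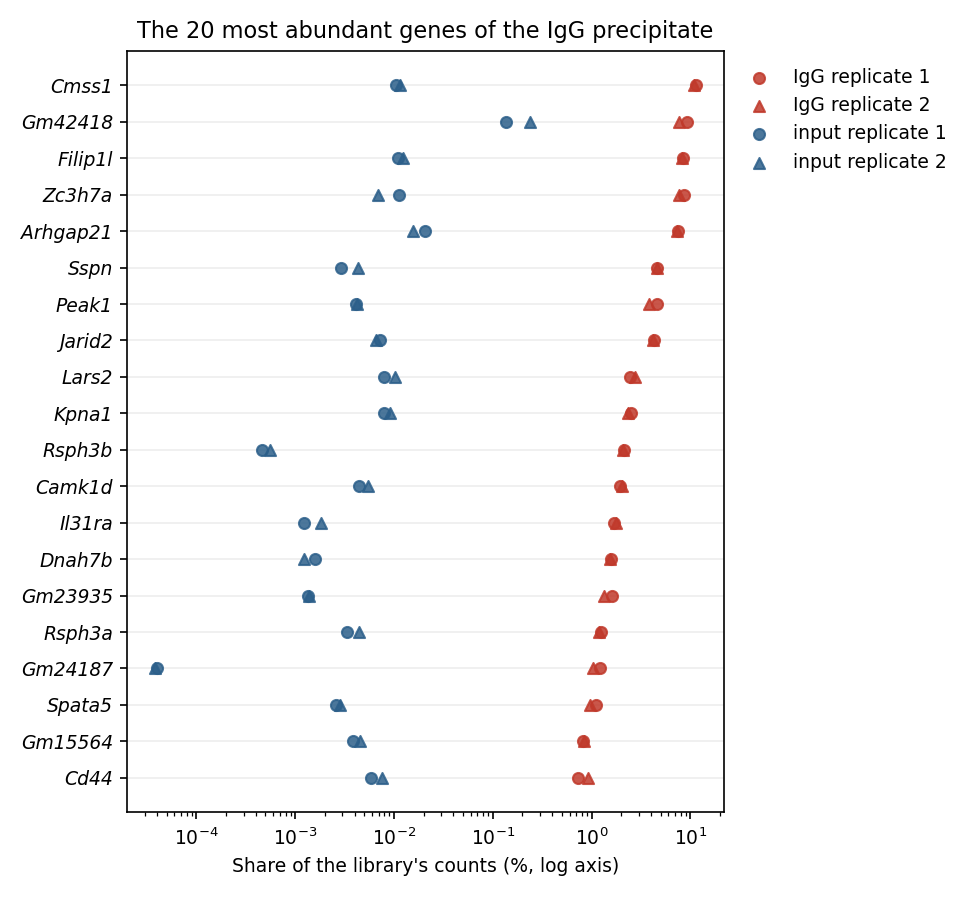
Share of library counts (x axis, percent on a log scale) of the 20 genes most abundant in IgG (y axis), with a point for each IgG and input library. For every gene both IgG points lie to the right of both input points, and the closest pair of groups is that of Gm42418.

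The same 20 genes did not dominate the series' single-cell libraries of cultured neural stem cells, which were made with oligo(dT) capture. The 18 of them listed there held 0.0519% of the counts of 887 cells cultured with BMP4 and 0.0315% of those of 1410 cells cultured with EGF. Ranked among all genes by level, they were not all low. With BMP4 they ran from percentile 40.2 (Il31ra) to 95.9 (Arhgap21), and with EGF from 38.7 (Il31ra) to 93.1 (Gm42418). Il31ra, a cytokine receptor gene chosen after its values were seen, had 169009 and 198144 counts in IgG, 212 and 292 in input and 0 in both cultures, where a count of 0 allows up to 0.173 and 0.0893 CPM. Single-cell and RIP counts were made by different methods, and their levels are set side by side only.

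Small structured RNAs were present in the IgG libraries and nearly missing from input. The 280 snRNA loci together, which code for the RNAs of the spliceosome and for 7SK, took 0.585% and 0.465% of the IgG counts (58833 and 52437) and 0.00066% and 0.00046% of the input counts (115 and 74). Only 38 of the 280 passed the filter, none of them with 10 counts in each input, so that passing already required a difference, and the 38 of 38 that were called higher are no independent support. Rn7sk, the 7SK RNA that holds the elongation factor P-TEFb inactive (chr9:78175302-78175633), had 7713 and 6754 counts in IgG and 2 and 1 in input. On scaled CPM this is a ratio of 42549 (95% counting interval 14557 to 206350; edgeR adjusted p = 7.2e-05).

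Of the spliceosomal RNAs, the U2 locus Rnu2-10 had 3806 and 2882 counts in IgG and 2 and 2 in input (log2 fold change 13.73, SE 0.86, edgeR adjusted p = 7.2e-05). The U1 locus Rnu1b6 had 864 and 837 counts in IgG and 0 and 0 in input, at least 2584-fold higher on scaled CPM against a floor of 3 counts per library. The locus of U5, Rnu5g, chosen after its values were seen, had 561 and 608 counts in IgG and 0 and 0 in input. In all of these the IgG and input libraries were separated by more than 2 orders of magnitude. Near-identical copies share such reads: 21 loci, 14 of them snRNA loci, fell into 7 sets whose counts agree within 2%, among them Rnu2-10 with 2 copies and Rnu1b6 with 2 copies, so a locus stands for its set.

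The RNAs of other ribonucleoproteins went the same way. The 3 loci of 7SL, the RNA of the signal recognition particle that takes nascent secretory proteins to the endoplasmic reticulum, took 0.892% and 0.471% of the counts in IgG and 0.00059% and 0.00054% in input. Rn7s1 had 45442 and 26715 counts in IgG and 69 and 57 in input (log2 fold change 12.42, SE 1.57, edgeR adjusted p = 0.000848), Rn7s6 had 24556 and 14332 in IgG and 29 and 26 in input, and Rn7s2 had 19730 and 12024 in IgG and 5 and 3 in input. All 3 loci were higher in both IgG libraries than in both inputs, with IgG replicate 1 the higher of the IgG pair.

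RNase P RNA (Rpph1), which trims the 5′ ends of tRNAs, had 239 and 361 counts in IgG and 19 and 18 in input (log2 fold change 7.13, SE 0.48, edgeR adjusted p = 7.2e-05). The related RNase MRP RNA (Rmrp), which acts in rRNA processing, had 193 and 152 counts in IgG and 1 and 1 in input, a ratio of 1522 (95% counting interval 418 to 12618). Rprl3, which the RefSeq table also types as an RNase P RNA, differed between the IgG libraries, with 45 counts in replicate 1 and 796 in replicate 2, and 0 and 0 in input, at least 1064-fold higher on the mean. The Y RNAs, partners of the Ro60 protein, were also found in IgG. Rny1 had 278 and 108 counts in IgG and 0 and 0 in input, at least 632-fold higher, and Rny3 had 28 and 24 in IgG and 0 and 2 in input, a ratio of 229 (95% counting interval 60.4 to 1944). All of these loci were called higher, also with any single library left out, but among them only Rpph1 had 10 counts in each input. The others passed the filter through the precipitates, and their calls are no independent support.

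Ribosomal RNA loci and nucleolar RNAs moved to a lesser share. The 70 loci of 5S and 5.8S rRNA took 0.0850% and 0.0660% of the counts in IgG and 0.00009% and 0.00009% in input, and 11 of the 70 passed the filter, none of them with 10 counts in each input. Most of the counts were at n-R5-8s1, a 5.8S locus, with 7512 and 6837 in IgG and 0 and 0 in input, at least 21919-fold higher. The 5S locus n-R5s106 had 292 and 171 counts in IgG and 0 and 0 in input, and 2 other loci, n-R5s130 and Gm24312, carry the same counts. The 131 snoRNA and scaRNA loci took 0.0360% and 0.0089% in IgG and 0.00497% and 0.00166% in input, with 11 tested and 6 called higher. Most of the class's IgG counts were at Gm24949 and Gm24826, 2 loci of near-identical counts chosen after their values were seen. Gm24949 had 1664 and 410 counts in IgG and 0 and 0 in input. The rule for named genes picked Cajal body RNAs from this class. Scarna2 had 88 and 59 counts in IgG and 7 and 1 in input (log2 fold change 7.35, SE 0.95, edgeR adjusted p = 0.000931), and Scarna13 had 41 and 35 in IgG and 2 and 2 in input. The small nucleolar RNAs Rnu3a (log2 fold change 8.26, edgeR adjusted p = 0.00105) and Snord118 (8.62, edgeR adjusted p = 0.00321), chosen after their values were seen, were also called higher. Only 4 of the 11 tested loci had 10 counts in each input, and Scarna2, Scarna13, Rnu3a and Snord118 were not among them. These RNAs passed the filter through the precipitates, so their calls are no independent support.

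**Figure D3:**
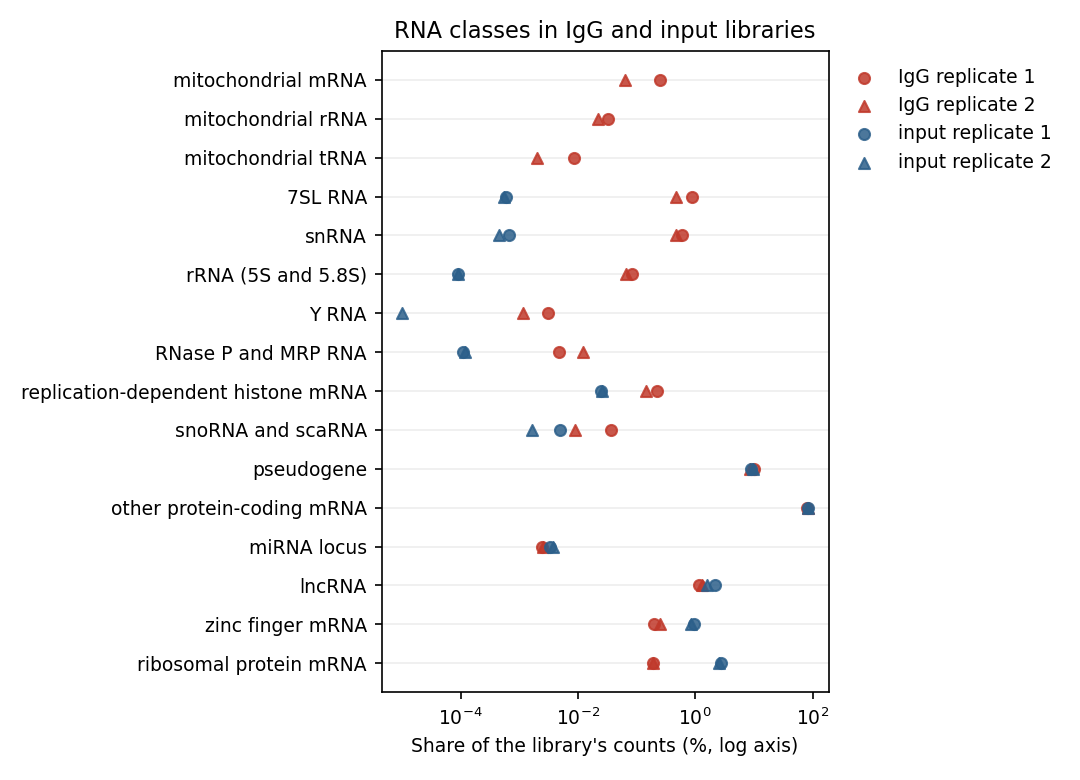
Share of library counts (x axis, percent on a log scale) of each RNA class (y axis), with a point for each IgG and input library; a library at 0 has no point. The snRNA, 7SL and 5S and 5.8S rRNA points of IgG lie orders of magnitude to the right of those of input, while the points of protein-coding mRNAs lie between 81.4% and 84.2%. In IgG this share is mostly that of a few genes, since 16 of the 20 dominant IgG genes are in this class. Of the counts outside these 20 genes, the class held 74.3% and 81.7% in IgG and 82.2% and 82.3% in input.

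Reads at miRNA loci were rare: 118 loci took 0.0024% and 0.0025% of the IgG counts and 0.0033% and 0.0038% of the input counts. Of these, 8 passed the filter and 4 were called higher. These are reads at the locus and say nothing of the mature miRNA. The mature sequences of the 4 loci are shown to identify the RNAs that these loci encode, with the seed (bases 2 to 8) in capitals, 5′ to 3′, from RefSeq on GRCm38.p6.
Mir6236: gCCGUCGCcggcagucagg
Mir6240: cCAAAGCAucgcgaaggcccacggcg
Gm25641 (miR-9b-5p): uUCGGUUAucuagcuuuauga
Gm25641 (miR-9b-3p): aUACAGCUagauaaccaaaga
Mir692-1: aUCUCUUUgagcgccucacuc
No seed is shared among them. Mir6236 (chromosome 9) was the most abundant, with 151 and 166 counts in IgG and 136 and 142 in input, or 35.1 and 26.6 scaled CPM in IgG and 2.73 and 3.29 in input (log2 fold change 3.35, SE 0.68, edgeR adjusted p = 0.00729). Mir6240 (chromosome 5) had 28 and 23 counts in IgG and 6 and 5 in input (log2 fold change 5.34). Both lost the call without either input, with adjusted p up to 0.0658 and 0.0631. Gm25641 and Mir692-1, chosen after their values were seen, had 5 and 16 counts in IgG and 3 and 1 in input, and 8 and 5 in IgG and 8 and 5 in input.

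Mitochondrially encoded RNA was present in both IgG libraries and at 0 in both inputs. The 13 mRNAs of the respiratory chain took 0.254% of the counts of IgG replicate 1 and 0.0638% of those of IgG replicate 2. The cytochrome c oxidase gene mt-Co1 had 5587 and 1524 counts in IgG and 0 and 0 in input, at least 11904-fold higher. The complex I subunits mt-Nd4 and mt-Nd1 had 910 and 520, and 696 and 422, counts in IgG and 0 in each input, at least 2275-fold and at least 1770-fold higher. The IgG libraries overlapped no input, and replicate 1 was higher than replicate 2 for each of these mRNAs.

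The mitochondrial rRNAs were closer between the IgG replicates. The large rRNA mt-Rnr2 had 2390 and 1616 counts in IgG and 0 and 0 in input, at least 6283-fold higher, and the small rRNA mt-Rnr1 had 863 and 817 in IgG and 0 and 0 in input, at least 2557-fold higher. Of the 22 mitochondrial tRNA genes 10 passed the filter, and the serine tRNA mt-Ts1 was the most abundant, with 673 and 158 counts in IgG and 0 and 0 in input. With the input at its floor, the median over the 13 mRNAs was 11.15 on the log2 scale. A gene at 0 in both inputs passes the filter only through the precipitates, and whether input reads of the mitochondrial genome were removed before counting was not tested.

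The mRNAs of replication-dependent histones, which package newly made DNA and lack a poly(A) tail, rose as a class in IgG. The 58 genes took 0.223% and 0.147% of the counts in IgG and 0.0250% and 0.0253% in input. Of 56 tested, 53 were called higher and none lower, with a median log2 fold change of 7.94, against 18.2% higher and a median of -0.13 over all genes. Leaving out 1 library left 49 to 52 calls, and library totals alone gave 51 higher and 3 lower. Only 28 of the 56 had 10 counts in each input, and the rest passed the filter through the precipitates. The calls of the rest are no independent support, so 53 of 56 is not a like match to the 18.2% of all genes. Calls among the 28 were not counted separately.

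Hist1h3b, the most abundant of them (chr13:23752345-23752840), had 1050 and 911 counts in IgG and 12 and 6 in input (log2 fold change 9.94, SE 0.93, edgeR adjusted p = 0.000235). Hist1h3a had 554 and 480 counts in IgG and 1 and 1 in input, a ratio of 4562 on scaled CPM (95% counting interval 1260 to 37717), and Hist1h3e had 451 and 396 in IgG and 1 and 2 in input, a ratio of 2491 (850 to 12104). The 3 tested genes that were not called are Hist1h1c (log2 fold change 1.26), Hist3h2ba (-0.19) and Hist2h2be (-0.74).

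Histone genes that are expressed outside S phase went the other way. These genes, listed after the values of the class were seen, gave 10 tested members, of which 5 were lower and none higher, with a median of -1.53. H2afj fell by 2.68 on the log2 scale, with 12.3 and 8.17 scaled CPM in IgG and 60.7 and 70.2 in input (SE 0.50, edgeR adjusted p = 0.0053). H3f3b, a gene of histone H3.3, had 67.2 and 47.7 scaled CPM in IgG and 167 and 175 in input (log2 fold change -1.58, SE 0.53, edgeR adjusted p = 0.0449), while its partner H3f3a had 56.3 and 42.6 in IgG and 31.9 and 47.2 in input and was not called.

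Many mRNAs of short housekeeping genes were lower in IgG, relative to the bulk of genes. Nuclear genes of oxidative phosphorylation, the mitochondrial respiratory chain and ATP synthase, with a median genomic span of 6.41 kb, had 49 members tested, of which 39 were lower and 1 higher, with a median log2 fold change of -1.91. Mitochondrial ribosomal proteins had 32 of 41 lower and none higher (median -1.65), and proteasome subunits 17 of 31 lower and 1 higher (median -1.13). Of 22 secretory pathway and ER chaperone genes 11 were lower and none higher (median -1.56), and of 17 glycolysis genes 8 were lower and 1 higher (median -1.12).

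The directions of these medians relative to all genes were kept with RLE size factors, library totals, no low-count filter and the 4 libraries alone. They were also kept with each library left out, and were not examined in the other alternatives. The calls, however, rest on all 4 libraries. With any single library left out, 1 to 18 of the oxidative phosphorylation genes were called lower, 0 to 9 of the mitochondrial ribosomal proteins, 0 to 1 of the proteasome subunits, 0 to 5 of the secretory genes and none of the glycolysis genes. Cox7b, a small subunit of cytochrome c oxidase, kept its call throughout, with 18.1 and 14.4 scaled CPM in IgG and 88.8 and 97.2 in input (log2 fold change -2.52, SE 0.40, edgeR adjusted p = 0.00273). Both IgG values lay below both inputs, as they did for Cox6b1, with 26.5 and 22.4 in IgG and 126 and 137 in input (log2 fold change -2.43), and for Atp5b, the catalytic subunit of ATP synthase, with 139 and 108 in IgG and 510 and 702 in input (log2 fold change -2.30). Cox6b1 lost the call without IgG replicate 2 (adjusted p = 0.0536), and Atp5b with any of the 4 left out (adjusted p 0.0525 to 0.152).

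Mrpl11, a mitochondrial ribosomal protein gene, had 5.35 and 4.96 scaled CPM in IgG and 20.4 and 21.1 in input (log2 fold change -2.01, SE 0.40, edgeR adjusted p = 0.00675), and it lost the call without IgG replicate 2 (adjusted p = 0.0745). Psma1, an alpha subunit of the proteasome core, had 14.4 and 11.8 in IgG and 41.2 and 42.6 in input (log2 fold change -1.68), and Spcs1, a signal peptidase subunit, had 9.30 and 6.08 in IgG and 41.0 and 46.9 in input (log2 fold change -2.52). Both were lower in each IgG library than in each input, and both lost the call without IgG replicate 2, at adjusted p of 0.0941 and 0.0669. The glycolytic enzyme gene Pkm had 164 and 159 in IgG and 489 and 499.6 in input (log2 fold change -1.62, SE 0.46, edgeR adjusted p = 0.025, up to 0.18 with 1 library left out).

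**Figure D4:**
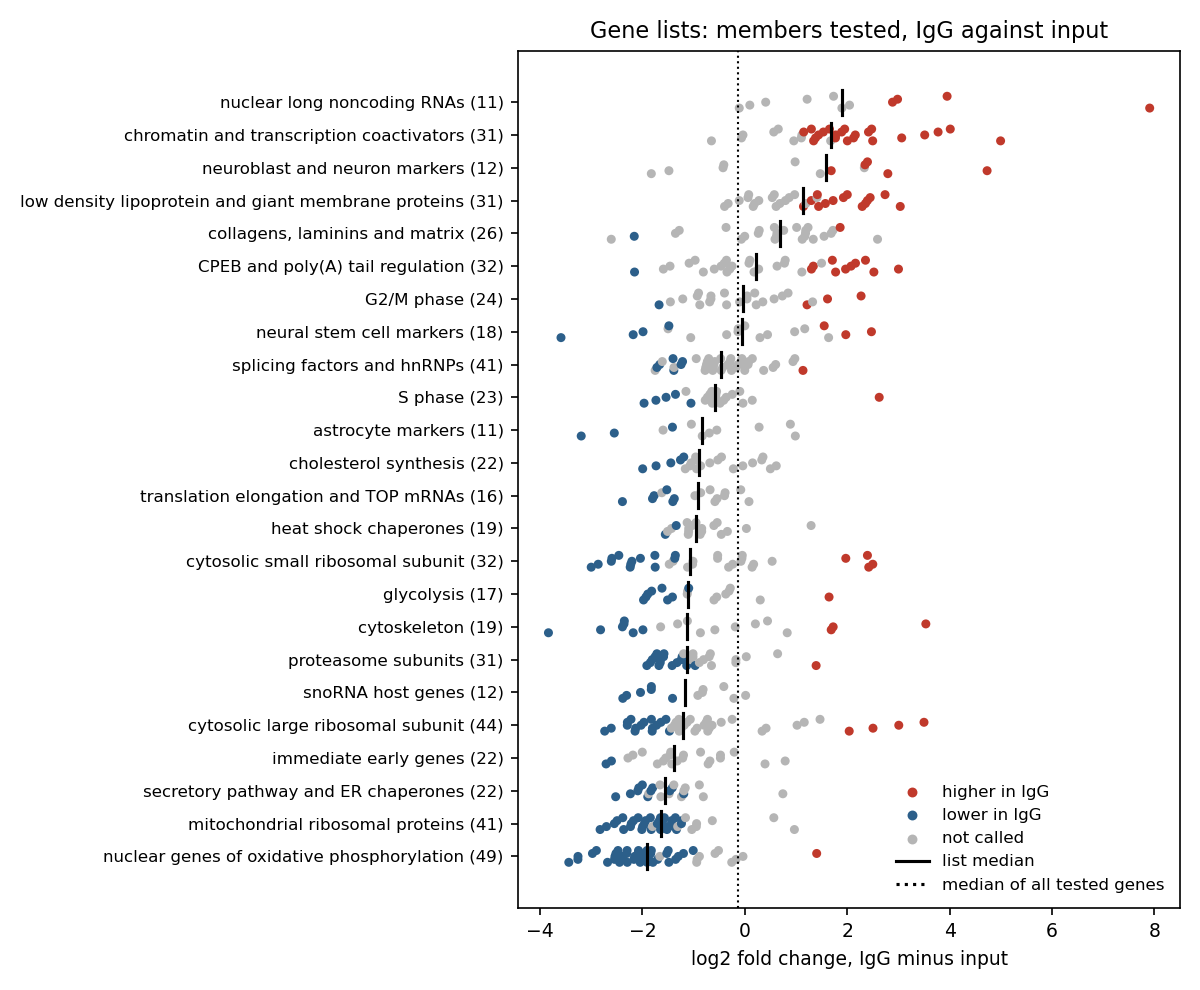
Log2 fold change, IgG over input (x axis), of every tested member of each gene list (y axis, number tested in brackets), coloured by the edgeR call, with the list median as a bar and the median of all tested genes as a dotted line. Lists of oxidative phosphorylation and mitochondrial ribosomal proteins lie left of the dotted line, and chromatin coactivators and giant membrane proteins right of it.

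Cytosolic ribosomal protein mRNAs, the most abundant of this kind, took 0.188% and 0.188% of the IgG counts and 2.69% and 2.54% of the input counts. Outside the 20 dominant IgG genes these shares were 0.854% and 0.709% in IgG and 2.70% and 2.55% in input. Of 80 tested genes 32 were lower and 8 higher, with a median of -1.21. Rps15, of the small subunit, had 37.7 and 32.2 scaled CPM in IgG and 234 and 192 in input (log2 fold change -2.61, SE 0.55, edgeR adjusted p = 0.00826), and Rpl21, of the large subunit, had 20.5 and 15.7 in IgG and 94.9 and 82.1 in input (log2 fold change -2.29, SE 0.41, edgeR adjusted p = 0.00452). Rps15 lost the call without either IgG library (adjusted p up to 0.0906) and Rpl21 without IgG replicate 2 (0.0647), and of the whole list of large-subunit genes, 16 of 44 were called lower with all libraries and 0 to 3 with 1 library left out.

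The 8 ribosomal protein genes called higher belong, but for Rps28, to families with pseudogenes that carry their symbol. Rpl9 had 70.5 and 45.3 scaled CPM in IgG and 6.07 and 4.13 in input (log2 fold change 3.50, SE 0.68, edgeR adjusted p = 0.00625), and Rpl3 had 142 and 116 in IgG and 24.4 and 21.1 in input (log2 fold change 2.50, SE 0.57, edgeR adjusted p = 0.0109). On library totals alone no ribosomal protein gene was called higher and 71 were lower. Among the others were Rps28, Rps27a, Rps12, Rps13 and Rpl23a, named after their values were seen. For Rpl3 these pseudogenes had 262 and 232 scaled CPM in IgG and 661 and 678 in input, so the pseudogenes held most of the family's input counts.

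When counts of a gene and its named pseudogenes were summed, 5 of the 7 families turned below input, with no test. The log2 ratio of means went with this sum to -0.88 for Rpl3, against 2.51 for the gene alone, to -0.80 for Rps27a, against 2.40, and to -0.66 for Rps12, against 2.43. It went to -1.16 for Rps13, against 2.50, and to -1.20 for Rpl23a, against 3.01. Rpl9 stayed above input, at 0.83. All 201 named ribosomal protein pseudogenes together had 14423 and 16677 counts in IgG (0.144% and 0.148%) and 327825 and 278923 in input (1.88% and 1.75%). The single-gene values of these families, higher or lower, are therefore uncertain.

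Pseudogenes as a class took 10.1% and 8.64% of the IgG counts and 8.81% and 9.65% of the input counts, and 3.75% and 3.29% of the IgG counts and 8.70% and 9.44% of the input counts outside the 20 dominant genes. Of 1684 tested, 257 were higher and 479 lower, with a median of -1.07. With 1 library left out at most 157 were higher and 108 to 214 lower, and on library totals alone 50 were higher and 1261 lower. Gm6311 had 0 and 1 counts in IgG and 2863 and 2785 in input, a ratio of 640 lower in IgG (95% counting interval 115 to 25288; edgeR adjusted p = 0.000148).

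Translation elongation and TOP mRNAs, whose 5′ ends bring them under growth control, had 6 of 16 members lower and none higher (median -0.92), and none lower with any single library left out. Among the snoRNA host genes 6 of 12 were lower and none higher (median -1.16), and 0 to 3 were lower with 1 library left out. Rack1, a ribosome-bound scaffold protein gene that hosts snoRNAs, had 61.9 and 61.5 scaled CPM in IgG and 305 and 339 in input (log2 fold change -2.38, SE 0.53, edgeR adjusted p = 0.0101, up to 0.0992 with 1 library left out). Eef1a1, the most abundant elongation factor, had 643 and 549 in IgG and 635 and 921 in input and was not called (log2 fold change -0.38).

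Cytoskeleton genes divided. Of 19 tested, 7 were lower and 3 higher (median -1.12), and 1 to 4 lower and 1 higher with 1 library left out. Tmsb4x, coding for the actin-sequestering thymosin beta 4 and chosen after its values were seen, fell by 3.84 on the log2 scale, while Actg1, the cytoplasmic gamma actin gene, rose, with 376 and 372 scaled CPM in IgG and 31.3 and 33.1 in input (log2 fold change 3.54, SE 0.59, edgeR adjusted p = 0.00337). Stmn3, a stathmin, had 7.44 and 5.44 in IgG and 35.4 and 30.5 in input (log2 fold change -2.36). Actg1 and Stmn3 were called whichever library was left out, but Actg1 was not on library totals alone (log2 fold change 1.03, adjusted p = 0.0595).

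Long genes of chromatin and membrane proteins were higher in IgG. Of 31 chromatin and transcription coactivator genes, 22 were higher and none lower, with a median of 1.68, and of 31 genes for low density lipoprotein receptors and other giant membrane proteins, 14 were higher and none lower, with a median of 1.15. With 1 library left out, 5 to 10 and 4 to 8 of them were called higher. This is a rise relative to the bulk of genes: on library totals alone none of either list was called higher, and 7 of the coactivator and 15 of the membrane genes were called lower. The median genomic span, from start to end with introns, was 92.0 kb in the coactivator list and 83.0 kb in the membrane list, against 21.4 kb over all tested genes with a span.

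Crebbp, the histone acetyltransferase CBP, had 102 and 137 scaled CPM in IgG and 10.5 and 6.88 in input (log2 fold change 3.78, SE 0.49, edgeR adjusted p = 0.000947). Srcap, the ATPase that loads the histone variant H2A.Z, had 36.1 and 58.3 in IgG and 2.55 and 3.29 in input (log2 fold change 4.01, SE 0.43, edgeR adjusted p = 0.000385). Fat4, a giant protocadherin, had 81.4 and 67.9 in IgG and 12.9 and 15.5 in input (log2 fold change 2.40, SE 0.38, edgeR adjusted p = 0.00259). All 4 libraries separated in each of these genes, as they did for Lrp2, the endocytic receptor megalin, with 15.8 and 11.5 in IgG and 2.22 and 2.76 in input (log2 fold change 2.45), and each kept its call whichever library was left out. On library totals alone, Crebbp had a log2 fold change of 1.29 (adjusted p = 0.136), and Fat4 (-0.12) and Lrp2 (-0.0737) turned below 0. Outside these lists, Cbl, a ubiquitin ligase of receptor signalling, had 53.5 and 68.7 in IgG and 1.86 and 1.74 in input (log2 fold change 5.08, SE 0.43, edgeR adjusted p = 0.000159).

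Fold change followed genomic span across the whole table. Among 13111 protein-coding genes, the median log2 fold change in 10 equal groups by span was -1.53 in the shortest group (median span 3.15 kb), -0.37 in group 5, 0.27 in group 7 and 1.95 in the longest group (median span 266 kb). In the shortest group 7.01% of the genes were called higher and 39.3% lower, and in the longest 62.1% were called higher and 1.60% lower. Spearman's rank correlation across these genes was 0.661, and 0.645 and 0.662 with IgG replicate 1 or 2 alone set against the input mean. Over the 15799 tested genes of any type with a span, it was 0.534. These are correlations across genes of the same 4 libraries, so the points are not independent. Span was not separated from transcript length, base composition or level, and their part in this relation was not tested.

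**Figure D5:**
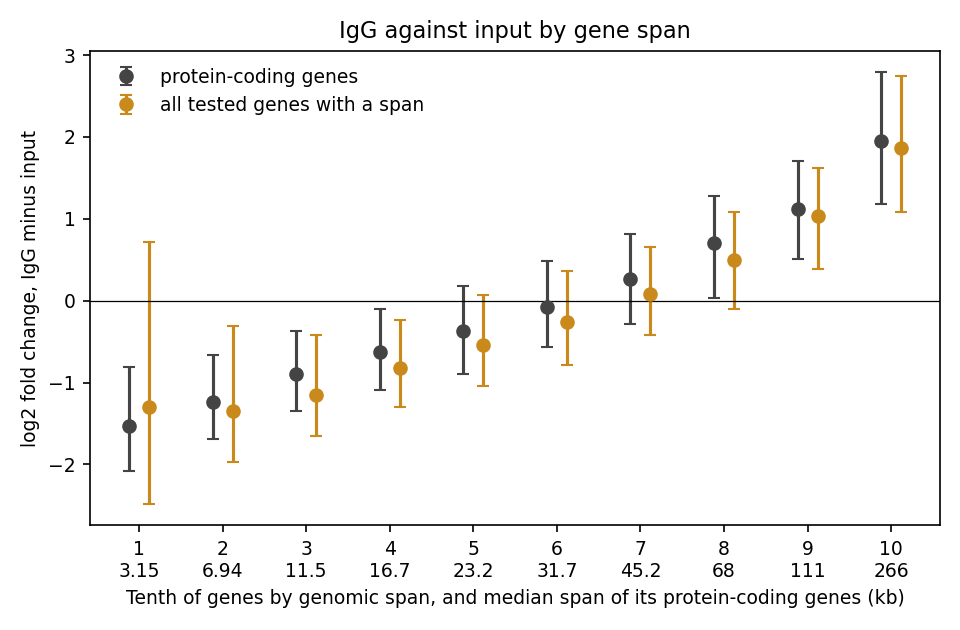
Median log2 fold change, IgG over input (y axis), in 10 equal groups of genes by genomic span, shortest to longest (x axis, group 1 to 10), for all tested genes with a span and for protein-coding genes; bars run from the 25th to the 75th percentile across genes. The protein-coding medians climb at every step, from -1.53 in the shortest group to 1.95 in the longest.

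Genes of CPEB proteins and poly(A) tail control had 10 of 32 members higher and 1 lower in IgG (median 0.23), 1 to 6 higher with 1 library left out, and 0 higher and 19 lower on library totals alone. Cpeb4 itself, the mRNA of the protein that the study precipitates (chr11:31870104-31935635), had 239 and 755 counts in IgG and 808 and 628 in input, or 55.6 and 121 scaled CPM in IgG and 16.2 and 14.6 in input (log2 fold change 2.52, SE 0.58, edgeR adjusted p = 0.0114). Both IgG values lay above both inputs, with IgG replicate 2 more than double replicate 1, and the call was lost without input replicate 1, input replicate 2 or IgG replicate 2 (adjusted p up to 0.126), and on library totals alone, where the log2 fold change was 0.0817 (adjusted p = 0.925). Tent2, a cytoplasmic poly(A) polymerase, had 31.6 and 45.0 in IgG and 5.11 and 4.45 in input (log2 fold change 3.00, SE 0.48, edgeR adjusted p = 0.00269), and kept the call whichever library was left out, but not on library totals alone (log2 fold change 0.53, adjusted p = 0.542). Cnot1, the scaffold of the deadenylase complex, had 87.0 and 84.9 in IgG and 19.3 and 24.5 in input (log2 fold change 1.97, SE 0.37, edgeR adjusted p = 0.00547, up to 0.0611 with 1 library left out), and -0.53 on library totals alone. Pabpn1, the nuclear poly(A)-binding protein and named after its values were seen, fell by 2.15 on the log2 scale.

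Long noncoding RNAs took 1.16% and 1.32% of the IgG counts and 2.14% and 1.61% of the input counts. Of 2111 loci, 920 were tested, 284 were higher (30.9%) and 76 lower (8.26%), with a median of 0.76. With 1 library left out 118 to 188 were higher and 4 to 36 lower, and on library totals alone 49 were higher and 387 lower. Of 11 nuclear long noncoding RNAs on a list, 4 were higher and none lower (median 1.90, 2 to 6 higher with 1 library left out). Malat1, the abundant nuclear speckle RNA, whose fold change was -1.34 on library totals alone, had 836 and 607 scaled CPM in IgG and 504 and 116 in input, and the spread between the inputs was wide (log2 fold change 1.22, SE 0.73, edgeR adjusted p = 0.212). Nespas, the antisense transcript of the imprinted Gnas locus, had 10.9 and 13.6 in IgG and 0.902 and 0.672 in input (log2 fold change 3.95, SE 0.57, edgeR adjusted p = 0.0015), although without strand its reads and those of Nesp cannot be told apart. Pvt1, the neighbour of Myc, had 318 and 309 in IgG and 55.2 and 29.7 in input (log2 fold change 2.89, up to adjusted p = 0.0743 with 1 library left out), and was not called on library totals alone (0.37, adjusted p = 0.68).

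Zinc finger mRNAs took 0.911% and 0.935% of the IgG counts and 0.938% and 0.837% of the input counts outside the 20 dominant genes. Of 353 tested, 69 were higher (19.5%) and 19 lower (5.38%), so the share called higher was near the 18.2% of all genes, with 1 library left out 22 to 39 were higher and 0 to 7 lower, and on library totals alone 3 were higher and 224 lower. Zfp791 had 910 and 430 scaled CPM in IgG and 0.521 and 0.185 in input (log2 fold change 10.85, SE 1.29, edgeR adjusted p = 0.000632). Zfp871 had 41.6 and 33.9 in IgG and 1.32 and 0.765 in input (log2 fold change 5.16). At the other end Zfp616 had 0 and 0 counts in IgG and 59 and 101 in input, at least 2.99-fold lower, and lost the call without input replicate 2 or either IgG library (adjusted p up to 0.11).

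Genes of stem cell identity moved in both directions. Of the 18 neural stem cell markers, 3 were higher and 4 lower (median -0.06), and none higher and 1 to 2 lower with 1 library left out. Fabp7, a fatty acid binding protein of radial glia, had 93.7 and 80.4 scaled CPM in IgG and 922 and 1175 in input (log2 fold change -3.59, SE 0.53, edgeR adjusted p = 0.00181), called whichever library was left out. Nfia, a long transcription factor gene, had 507 and 603 in IgG and 91.4 and 108 in input (log2 fold change 2.47, SE 0.59, edgeR adjusted p = 0.0134, up to 0.108 with 1 library left out), and -0.011 on library totals alone. The groups did not overlap in either gene, as in 76.1% of all tested genes.

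Markers of other cell types did not move as a block. The oligodendrocyte lineage markers summed to 266 and 202 scaled CPM in IgG and 1321 and 1599 in input, mostly Olig1, a lineage transcription factor with 209 and 146 in IgG and 1181 and 1485 in input (log2 fold change -2.91, SE 0.73, edgeR adjusted p = 0.0156, up to 0.147 with 1 library left out). Mbp, the myelin basic protein gene, had 4.88 and 3.84 in IgG and 43.4 and 40.8 in input (log2 fold change -3.28, SE 0.40, edgeR adjusted p = 0.000694). Astrocyte markers had 3 of 11 lower and none higher (0 to 2 lower with 1 library left out), with sums of 344 and 333 in IgG and 872 and 790 in input, and Apoe, the lipid carrier, had 63.3 and 32.2 in IgG and 499.8 and 373 in input (log2 fold change -3.20, up to adjusted p = 0.109 with 1 library left out). Neuroblast and neuron markers had 5 of 12 higher and none lower (0 to 2 higher with 1 library left out, and none higher and 4 lower on library totals alone), with sums of 567 and 872 in IgG and 253 and 220 in input.

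The neuron marker with the lowest p was Nrxn3, a synaptic adhesion gene, with 105 and 297 scaled CPM in IgG and 10.2 and 4.87 in input (log2 fold change 4.73, SE 0.97, edgeR adjusted p = 0.00745, up to 0.069 with 1 library left out), and was not called on library totals alone (2.30, adjusted p = 0.102). Its IgG values differed from each other by more than its inputs did, and still lay above both. Of 16 microglia and macrophage markers in the table, the defining markers Aif1 and Fcgr1 had 0 counts in all 4 libraries, Tmem119 had 0 and 0 in IgG and 2 and 0 in input, and C1qb had 1 and 0 in IgG and 0 and 0 in input. P2ry12, a purinergic receptor, had 13 and 38 counts in IgG and 16 and 12 in input (log2 fold change 3.92, SE 0.53, edgeR adjusted p = 0.00111).

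Immunoglobulin and Fc-binding genes were at the edge of detection. The 7 genes in the table summed to 5.12 and 3.52 scaled CPM in IgG and 3.21 and 1.58 in input, and Ighm, the immunoglobulin mu chain, had 0 counts in all 4 libraries. The 2 that passed the filter, Trim21 (log2 fold change -1.07) and Fcer1g (0.99), were not called.

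The largest losses among the named mRNAs left few or no counts in IgG. Car1, a carbonic anhydrase gene, had 0 and 0 counts in IgG and 610 and 563 in input, at least 21.5-fold lower on scaled CPM. Opn1mw, a cone opsin gene, had 1 and 3 counts in IgG and 1135 and 1157 in input (log2 fold change -6.02, SE 0.60, edgeR adjusted p = 0.000294). Aldoart2, a retrogene of aldolase A, had 1 and 0 counts in IgG and 244 and 446 in input, a ratio of 78.2 lower in IgG (95% counting interval 14.0 to 3093), and lost the call without IgG replicate 2 (adjusted p = 0.053). For all of them both IgG libraries lay below both inputs by more than counting error. Genes named for their fold change were chosen for such separation, so it is no independent support. Of all tested genes, 76.1% did not overlap between IgG and input.

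Further losses had too few IgG counts for a close estimate. BC048507 had 0 and 2 counts in IgG and 254 and 311 in input, a ratio of 32.0 lower in IgG (95% counting interval 8.82 to 265). Slc22a3, an organic cation transporter gene, had 0 and 1 counts in IgG and 170 and 221 in input, a ratio of 44.3 (7.91 to 1755), and lost the call without either IgG library (adjusted p up to 0.0619). C6, a complement gene, had 2 and 1 counts in IgG and 613 and 66 in input, a ratio of 25.7 (8.74 to 125); its inputs differed widely, and it lost the call without input replicate 1 or either IgG library (adjusted p up to 0.136). With IgG libraries of these sizes, a count of 3 corresponds to 0.589 scaled CPM, against 0.0648 in input, so the loss of genes below that level was not detectable.

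Other lists stayed near the bulk of genes or rested on few calls. Splicing factors and hnRNPs had 6 of 41 lower and 1 higher (median -0.46). Immediate early genes had 2 of 22 lower (median -1.37), heat shock chaperones 2 of 19 lower (median -0.95) and cholesterol synthesis genes 5 of 22 lower (median -0.90), none of them with a member higher. S phase genes had 5 of 23 lower and 1 higher (median -0.58), and G2/M genes 1 of 24 lower and 3 higher (median -0.03). Collagens, laminins and matrix genes had 1 of 26 lower and 1 higher (median 0.69). With 1 library left out, each of these lists had between 0 and 3 members called lower and at most 1 called higher.

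Against the CPEB4 precipitates, the IgG libraries showed no called gene. The wildtype CPEB4 precipitates had 0 genes called against IgG by edgeR, with 1360 at an unadjusted p under 0.05 (7.97% of 17062), and 4 higher and 6 lower by DESeq2. The precipitates labelled knockout had 0 by edgeR, with 381 at an unadjusted p under 0.05 (2.23%), and 0 by DESeq2. Knockout-labelled replicate 2 stood apart from its partner and correlated with the IgG libraries at r of 0.971 and 0.964 across genes, against 0.868 and 0.923 for replicate 1. Without replicate 2, edgeR called 685 genes higher and 1496 lower in the remaining library than in IgG.

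The genes that marked IgG were also abundant in the CPEB4 precipitates, which share these IgG libraries in each comparison. The 20 dominant IgG genes held 50.3% and 58.7% of the counts of the wildtype CPEB4 precipitates and 37.7% and 78.1% of those labelled knockout, against 78.0% and 73.5% in IgG. Col6a6 had 3405 and 3230 scaled CPM in wildtype CPEB4 precipitates, 2316 and 16072 in those labelled knockout and 16171 and 12867 in IgG. Rn7sk had 712 and 1176, then 1036 and 949, against 1794 and 1081 in IgG. The lowest value for each of these was far above both inputs.

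Of the genes lower or higher in IgG than in input, Fabp7 had 45.7 and 42.4 scaled CPM in wildtype CPEB4 precipitates, 39.7 and 77.1 in those labelled knockout and 93.7 and 80.4 in IgG. Hist1h3b had 52.3 and 67.6 in the wildtype ones, 40.9 and 180 in those labelled knockout and 244 and 146 in IgG. Cpeb4 had 225 and 81.2 with wildtype cells and 231 and 250 with knockout-labelled cells, against 55.6 and 121 in IgG. The differences from IgG were 0.79 (edgeR adjusted p = 0.637) and 1.45 (edgeR adjusted p = 0.849) on the log2 scale. Cpeb4 mRNA was thus not lower in the libraries labelled CPEB4-/-, and which part of the gene was deleted was not given in the sources used here, so this gene does not check those labels.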

How the data were processed

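RIP libraries were measured as whole-number read counts per gene (27144 Ensembl genes) that the authors deposited as 1 table. Per the submitters' processing notes the build was mm10 and the tools Bowtie2, SAMtools and Cell Ranger; versions, the step each served, the annotation and the strand setting were not given in the sources used here. A name table gave symbols to 98.2% of the identifiers, and RefSeq annotation of GRCm38.p6 gave class, position and span to 87.3%. The single-cell culture counts, which the authors also deposited as counts, were used only for the levels of the dominant genes.

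The counts of all 8 libraries, which share an estimate of the spread, were fitted with edgeR 4.0.16 (R 4.3.3, filterByExpr, TMM, quasi-likelihood test, threshold 0.05). The fit was run on simulated data in which every library had the input profile and few genes were changed. That simulation held no dominant genes like those of IgG, so it does not test the fit in that setting. Python 3.11.15, pandas 2.3.3, scipy 1.17.1 and matplotlib 3.10.9 made the rest. For 1 value, an exact two-sided permutation test of 2 against 2 libraries cannot go below p = 0.333, so shares carry no test. Counting intervals are 95% exact, and intervals and floors (3 counts per library) cover counting error only. Lists are described by counts and medians, not tested.

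Named genes are Cpeb4, the 10 most abundant in IgG, the 12 largest fold changes each way (mean of 50 or more counts in the higher group, no overlap), and in each list and class the 2 members of smallest p and the most abundant; predicted genes were passed over except among pseudogenes and long noncoding RNAs. The text uses part of this selection, and some genes are not reported here. The libraries, members, lists and rules were chosen with earlier results of these data known. Alternatives covered DESeq2 1.42.0, scaling, filters, libraries in the fit, blocks and each library left out. GC content was not examined, since no genome was used here.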

Additional observations from a re-analysis of the deposited data

How the results depend on the processing

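The counts of 3099 genes higher and 2661 lower in IgG kept within 1.5 times under DESeq2, RLE size factors, scaling over nuclear protein-coding genes, the stricter filter and the fit of the 4 libraries alone. They moved to 426 and 11176 under library totals only, to 4292 lower without the low-count filter, and to 1003 to 1746 higher and 193 to 719 lower with 1 library left out. Deviations of same-numbered libraries from their group means correlated at -0.2 between IgG and input; of the 6 pairs of RIP groups, the 3 with IgG lay between -0.448 and -0.2 and the 3 without it between 0.12 and 0.32, so the numbers were not taken to pair the libraries. The replicate block gave 3071 higher and 2376 lower; the crossed pairing of the 4 libraries, chosen after seeing the data, gave 4373 and 4599, and the block in those 4 libraries 3635 and 3468. Against IgG, wildtype CPEB4 precipitates had 4 higher and 6 lower by DESeq2, and those labelled knockout 0 to 685 higher and 0 to 1496 lower with 1 library left out; the cause of these moves was not tested. Under library totals only, 10 named genes changed sign to lower: Malat1 -1.34, Nfia -0.011, Map2 -0.78, Macf1 -0.15, Rpl3 -0.0206, Cnot1 -0.53, Fat4 -0.12, Lrp2 -0.0737, Cenpe -0.90 and Rbfox3 -0.14. Of 101 named genes 99 were called, and 49 of these kept the call without any single library. The ribosomal protein share of IgG without mitochondrial genes in the total was 0.188%. The span effect, longest minus shortest of the 10 groups, was 3.16 over all genes, 3.47 over protein-coding genes, and 2.25 and 2.67 with IgG replicate 1 or 2 alone. Of 7 ribosomal protein genes called higher, 2 stayed above input with their named pseudogenes added. Bins by GC content were not run. With 3 counts in an IgG library worth 0.589 scaled CPM, depth limits losses of low genes.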

Other observations

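A mitochondrial rRNA, mt-Rnr1, had nearly the same count in all 6 precipitates, whose totals span 1.68-fold: 844 and 893 in wildtype CPEB4 precipitates, 852 and 838 in those labelled knockout, and 863 and 817 in IgG. The coefficient of variation of these 6 counts was 3.01%, under the 3.43% that Poisson counting gives at this level, while that of the library totals was 18.6%. Among 4694 genes with a mean of 200 or more counts, 5 had a variation under their Poisson value: mt-Rnr1, Cycs, Rps10, Gm10076 and Rps16-ps2. They were chosen after their values were seen, and the reason was not tested.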
